A study of Mus musculus with 6 samples.

Results

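The genes described here are Setdb1, which encodes the histone methyltransferase ESET (SETDB1), and 9 genes whose products work with it or add methyl groups to the same residue, lysine 9 of histone H3 (H3K9). Chosen by name, with earlier results of these data known, they are Setdb1, its relative Setdb2, and the cofactors Atf7ip and Trim28. The others are the HUSH complex genes Mphosph8 and Tasor, and the H3K9 methyltransferase genes Suv39h1, Suv39h2, Ehmt1 and Ehmt2. The platform annotation gave 19 of the 45037 probe sets to 9 of these 10 genes alone, and all 19 were used. Suv39h1 was not analysed here. A probe set is a group of array probes that reads a transcript, and its value is an intensity on a linear scale.

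Transcripts were measured on 6 single-colour Affymetrix arrays of mouse dorsal telencephalon, the part of the forebrain that forms the cerebral cortex, at E14.5. The 3 cKO arrays are labelled as a knockout of ESET made with Emx2Cre, and the 3 WT arrays as wild type. All 6 samples are labelled male and on a C57BL\6 background. Emx2 is active in the progenitor cells of the dorsal telencephalon, so recombination is directed to these cells and their descendants. The labels do not give the exons that are deleted, how many cells were recombined, or whether the WT embryos carried Cre. The comparison asks how the transcripts of Setdb1 itself and of the rest of the H3K9 methylation system differed between the genotypes.

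SETDB1 trimethylates H3K9 in euchromatin and silences genes and retroelements. ATF7IP binds SETDB1 and keeps it stable and in the nucleus, and TRIM28 (KAP1) brings it to sites chosen by KRAB zinc finger proteins. The HUSH complex, in which MPHOSPH8 binds methylated H3K9 and TASOR is the scaffold, also recruits SETDB1. SUV39H1 and SUV39H2 trimethylate H3K9 in pericentromeric heterochromatin, and EHMT1 (GLP) with EHMT2 (G9a) lays down mono- and dimethylation in euchromatin.

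Both arrays numbered 3 were unlike the rest in sex-linked and blood transcripts. On cKO 3, Xist read 8811 and the Y-linked Eif2s3y 961, and on WT 3 Xist read 17294 and Eif2s3y 22.2, although both samples are labelled male. Xist with Y-linked signal on cKO 3 goes against RNA of a single male embryo, and WT 3 goes against its label. On the other 4 arrays Xist lay between 34.1 and 59.0. The summed intensity of 8 erythroid genes was 74036 on cKO 3 and 69418 on WT 3, and at most 17170 on the others. The brightest Setdb1 probe set, Atf7ip, Tasor and Lrif1 are therefore also given without both arrays. Of 10 dorsal telencephalon markers 9 had a probe set, and their summed intensity ran from 42698 to 49985 in cKO and from 44656 to 48571 in WT. Of the 9, Emx2 and Eomes were lower in cKO and Neurog2 higher, without overlap, and 0 passed in limma. Among all 18193 genes, 15.5% did not overlap in either direction. Array medians lay between 91.1 and 119.

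Setdb1 itself, at chr3:95323525-95357202 on the minus strand (GRCm38.p6), was lower on every cKO array on its brightest probe set. This probe set, 1451833_a_at, read 704, 696 and 500 on the cKO arrays, against 1162, 1185 and 1033 on the WT arrays. The lowest value was that of cKO 3, and the groups did not overlap. The mean of 633 ± 115 in cKO was 56.2% of the mean of 1126 ± 81.9 in WT (SD, n = 3 each). The log2 fold change, cKO minus WT on the log2(intensity + 16) scale, was -0.83 with a 95% interval from -1.27 to -0.39. In the fit of all probe sets with limma this did not pass the threshold of 0.05 (adjusted p = 0.237). Without the arrays numbered 3 it was -0.73 (adjusted p = 0.386).

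Setdb1 had 2 further probe sets, both dim. On 1458215_at the cKO arrays read 10.6, 23.8 and 34.2, against 56.5, 70.3 and 74.8 on the WT arrays, again with no overlap. Its log2 fold change was -1.14 (95% interval -1.76 to -0.52, adjusted p = 0.247). At this brightness the pseudocount of 16 sets the size, which was -1.65 with a pseudocount of 1 and -0.60 with 64. On 1416670_at the values were 34.0, 17.9 and 48.7 in cKO and 35.4, 40.7 and 78.3 in WT, which overlap, and the log2 fold change was -0.44 (95% interval -1.22 to 0.34). It was -0.17 without WT 3 and -0.19 without cKO 2, so single arrays set much of its size. All 3 probe sets were thus lower in the cKO mean, by different amounts. A probe set outside the deleted exons would not check the genotype, and the positions of these probes were not used here. In RNA of whole tissue, fewer cells that express a gene and less RNA per cell cannot be told apart.

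**Figure D1:**
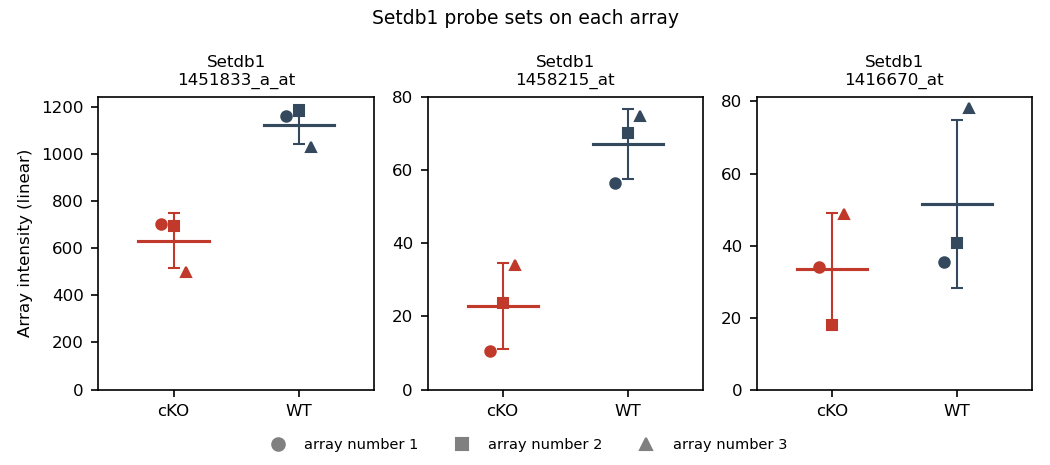
Array intensity (linear scale, vertical axis from 0, a scale of its own in each panel) of the 3 Setdb1 probe sets on the 3 cKO and 3 WT arrays. Points are arrays, with the marker shape giving the array number, the horizontal lines are means and the bars are SD (n = 3). On 1451833_a_at the cKO arrays lie between 500 and 704 and the WT arrays between 1033 and 1185, and on 1416670_at the groups overlap.

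Emx2, the gene after which the Cre line is named, read between 647 and 743 in cKO and between 1129 and 1395 in WT, with a log2 fold change of -0.83 (adjusted p = 0.142). Eomes, a marker of intermediate progenitor cells, read between 2783 and 3404 in cKO and between 4690 and 5062 in WT, a log2 fold change of -0.63 (95% interval -0.97 to -0.28, adjusted p = 0.264). As it is not stated whether the WT embryos carried Cre, effects of the Cre allele and of losing Setdb1 cannot be told apart. The summed intensity of 8 endothelial markers ran from 1133 to 1298 in cKO and from 1414 to 1580 in WT. Of the 8 genes, 3 (Tie1, Emcn and Cldn5) were below WT without overlap, where 1390 of all 18193 genes were. In limma 0 of the 8 passed (adjusted p = 0.307 for Tie1, 0.406 for Emcn and 0.611 for Cldn5). The others overlapped, with log2 fold changes from -0.26 for Flt1 to 0.06 for Pecam1. Tie1 was dim, between 12.5 and 30.5 in cKO and between 45.3 and 54.5 in WT. The summed levels of 8 ventral telencephalon, 8 meningeal and 7 microglial genes overlapped between the groups. In the meningeal sum Zic1 was the largest gene on every array, and it was highest on WT 3 (2701.5). On cKO 3, Col3a1 read 835, Col1a2 583, Lum 201.5 and Dcn 201. On the other arrays these read at most 229, 168.6, 56.06 and 76.89 in the same order. Of the 8 ventral genes, 2 were higher in cKO without overlap, where 1438 of all 18193 genes were. Gad1, an enzyme of GABA synthesis, was at 0.48 (95% interval 0.08 to 0.88, adjusted p = 0.519), and Nkx2-1, a transcription factor of the ventral telencephalon, at 1.01 on a dim probe set (95% interval 0.20 to 1.83, adjusted p = 0.503). The part of any of these cells in the differences of Setdb1, Atf7ip, Tasor and Lrif1 was not tested.

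Setdb2, a second SET domain protein of the same family, did not differ detectably. Its single probe set 1436120_at read 261, 258 and 238 on the cKO arrays and 225, 264 and 276 on the WT arrays. The groups overlapped, and the log2 fold change of -0.01 had a 95% interval from -0.36 to 0.34.

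Atf7ip, the gene of the SETDB1 cofactor, was higher in the cKO mean on all 3 of its probe sets. It lies at chr6:136518789-136610850 on the plus strand (GRCm38.p6). The probe set 1449192_at read 1594, 1719 and 1404 on the cKO arrays, against 904, 682 and 781 on the WT arrays. Every cKO array was above every WT array, and the cKO mean of 1572 ± 159 was 199% of the WT mean of 789 ± 111 (SD, n = 3 each). The log2 fold change was 0.98 with a 95% interval from 0.58 to 1.39. It ranked 301 by p among 45037 probe sets and did not pass over all of them (limma, adjusted p = 0.122). It passed in 3 of 16 other fits, those with a pseudocount of 64, with dim probe sets left out and with trend and robust eBayes, and over the 16 its adjusted p ran from 0.0174 to 0.347.

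The brightest Atf7ip probe set, 1454973_at, read 4412, 3492 and 5467 in cKO, against 2471, 2702 and 2566 in WT. The groups did not overlap, and the spread in cKO (SD 988) was wider than in WT (SD 116). The log2 fold change was 0.76 (95% interval 0.29 to 1.23, adjusted p = 0.326). The third, 1446323_at, was dimmer, with 179, 121 and 259 in cKO and 86.9, 82.8 and 123 in WT. Here the groups overlapped by 1 array, cKO 2 lying just below WT 3, and the log2 fold change was 0.79 (95% interval 0.11 to 1.48, adjusted p = 0.554). Without the arrays numbered 3 the fold changes of the 3 probe sets were 1.06, 0.60 and 0.70 in the same order.

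Tasor, the scaffold of HUSH, was also higher on every cKO array. It lies at chr14:27423674-27483555 on the plus strand (GRCm38.p6) and had 1 probe set, 1457034_at. This read 1063, 1404 and 1218 on the cKO arrays, against 738, 640 and 562 on the WT arrays. The lowest cKO array exceeded the highest WT array by more than the SD of either group, 170 in cKO and 88.3 in WT. The cKO mean was 190% of the WT mean, with a log2 fold change of 0.91 (95% interval 0.48 to 1.33). It did not pass over all probe sets (limma, adjusted p = 0.176), and without the arrays numbered 3 it was 0.82 (adjusted p = 0.462).

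Mphosph8, the chromodomain subunit of the same complex, had overlapping groups on all 3 of its probe sets. The brightest, 1418388_s_at, read 2637, 2286 and 1918 in cKO and 2444, 2077 and 1760 in WT. The values of both groups covered much the same range, and the log2 fold change was 0.12 (95% interval -0.34 to 0.59). The other probe sets gave 0.11 for 1418387_at and 0.07 for 1427524_a_at, with intervals from -0.24 to 0.46 and from -0.35 to 0.49. The difference between Mphosph8 and Tasor was not itself tested.

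Trim28, the corepressor that links KRAB zinc finger proteins to SETDB1, was bright and alike in range between the groups. On 1456308_x_at it read 6764, 6835 and 8692 in cKO and 7651, 7136 and 9156 in WT. The highest array of each group was number 3, and the log2 fold change was -0.10 (95% interval -0.53 to 0.32). The second probe set, 1415869_a_at, gave -0.16 (95% interval -0.58 to 0.25).

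**Figure D2:**
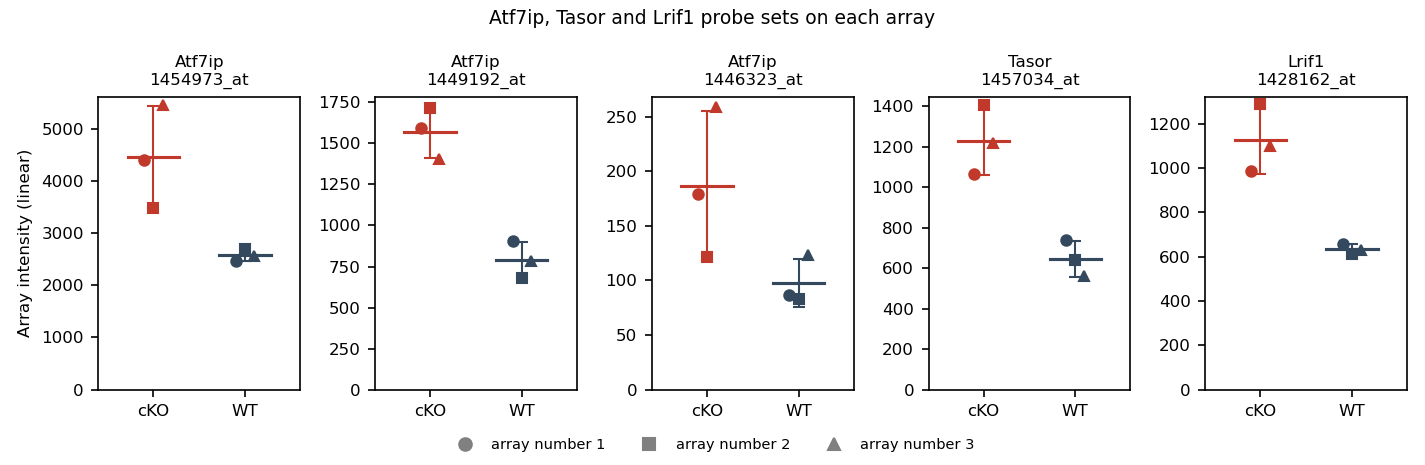
Array intensity (linear scale, vertical axis from 0, a scale of its own in each panel) of the 3 Atf7ip probe sets, the Tasor probe set and that of Lrif1, an HP1-binding protein, on the 3 cKO and 3 WT arrays. Points are arrays, horizontal lines means and bars SD (n = 3), and every cKO array lies above every WT array except on 1446323_at.

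Promoters are shown for the members with a probe set on which the arrays did not overlap, although none of these genes passed in limma. The sequences are the 250 bases before the annotated start in the RefSeq promoter table (GRCm38.p6), which held all 10 genes. Capitals mark the letters GGGCGG (GC box, bound by SP and KLF factors), CCAAT (bound by NF-Y) and CCGGAA (core of many ETS sites), searched on both strands, with no overlap between matches.
Setdb1, chr3:95357203-95357452, minus strand: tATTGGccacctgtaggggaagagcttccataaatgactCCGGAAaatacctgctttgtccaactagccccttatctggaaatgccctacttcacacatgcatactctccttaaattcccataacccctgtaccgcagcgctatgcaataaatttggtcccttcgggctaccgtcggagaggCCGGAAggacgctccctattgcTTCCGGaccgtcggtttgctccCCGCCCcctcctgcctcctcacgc
Atf7ip, chr6:136518601-136518850, plus strand: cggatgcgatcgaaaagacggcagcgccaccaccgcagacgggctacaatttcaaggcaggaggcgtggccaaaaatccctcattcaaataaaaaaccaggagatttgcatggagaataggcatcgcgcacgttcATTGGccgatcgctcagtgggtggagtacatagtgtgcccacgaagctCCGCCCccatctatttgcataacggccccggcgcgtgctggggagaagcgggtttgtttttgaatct
Tasor, chr14:27428584-27428833, plus strand: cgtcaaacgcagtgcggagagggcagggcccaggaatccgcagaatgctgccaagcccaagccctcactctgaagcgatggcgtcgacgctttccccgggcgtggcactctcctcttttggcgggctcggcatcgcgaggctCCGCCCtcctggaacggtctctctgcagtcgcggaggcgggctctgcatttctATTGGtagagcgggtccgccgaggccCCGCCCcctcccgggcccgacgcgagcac
The Setdb1 window held 3 matches to CCGGAA, 1 to GGGCGG and 1 to CCAAT. The Atf7ip window held 1 each of GGGCGG and CCAAT, and the Tasor window 2 of GGGCGG and 1 of CCAAT. Of all 32851 windows in the table, 32.7% held GGGCGG, 33.9% CCAAT and 12.0% CCGGAA. CpG dinucleotides numbered 13 for Setdb1, 20 for Atf7ip and 27 for Tasor, where the median of all windows was 6. The Tasor window and the end of the Atf7ip window lie inside the gene spans given above, which begin at a start further upstream. Matches are letters in the reference, and no binding was measured.

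The methyltransferases outside the SETDB1 family had overlapping groups on all of their probe sets. Suv39h2 had 3 probe sets, and the brightest, 1422979_at, read 640, 438 and 613 in cKO and 448, 485 and 678 in WT. The groups overlapped, with a log2 fold change of 0.07 (95% interval -0.48 to 0.62). The others were at 0.03 on 1433996_at (95% interval -0.43 to 0.48) and -0.19 on the dim 1436561_at (95% interval -0.85 to 0.47).

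Ehmt1 read 5334, 4177 and 5152 in cKO and 4302, 4321 and 4800 in WT on its single probe set, 1454776_at. The lowest value of all was that of cKO 2, and the log2 fold change was 0.12 (95% interval -0.26 to 0.50). Its partner Ehmt2 was at the other side of 0 on both of its probe sets. The brighter, 1460692_at, read 2059, 2199 and 2628 in cKO and 2614, 2265 and 3096 in WT, a log2 fold change of -0.21 (95% interval -0.64 to 0.23). The dimmer, 1426888_at, read 140, 63.4 and 90.8 in cKO and 117, 133 and 201 in WT, a log2 fold change of -0.57 (95% interval -1.30 to 0.16). That of 1426888_at was -0.33 without cKO 2, -0.36 without WT 3 and -0.34 without both arrays numbered 3, and that of 1460692_at was -0.13 without cKO 1 and -0.09 without WT 3. On both, the arrays overlapped.

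Over the 19 probe sets, 0 passed the threshold in limma, where 124 of all 45037 probe sets did (0.275%). At an unadjusted p under 0.05 there were 6, against 7.9% of all probe sets. Of these, 4 were higher in cKO, against 4.57% of all, and 2 lower, against 3.33%. The arrays of the groups did not overlap on 5 of the 19, against 13.5% of all probe sets. The 2 that were lower belong to Setdb1, where 6.07% of all were lower without overlap. Leaving out Setdb1, the targeted gene, 3 of 16 did not overlap, all higher in cKO, against 7.47% of all probe sets in that direction. The 3 probe sets come from 2 genes, so they are not independent. Because the members were chosen with earlier results of these data known, the shares beside these counts are a description. The median log2 fold change of the 16 was 0.07, and that of all probe sets 0.02. For a single probe set, groups of 3 that do not overlap give a two-sided exact permutation p of 0.1, the smallest this design allows.

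**Figure D3:**
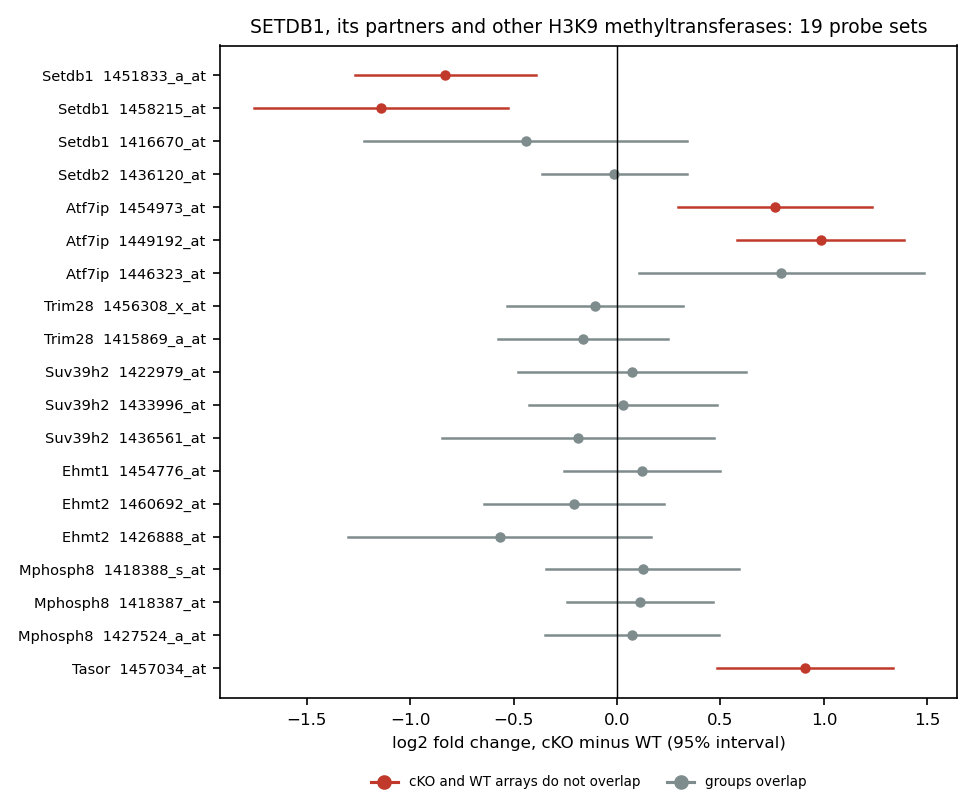
Log2 fold change, cKO minus WT (horizontal axis), of the 19 probe sets of the 9 measured genes, ordered by gene, with 95% intervals from the limma fit of all probe sets. Red marks the 5 probe sets whose cKO and WT arrays do not overlap, 2 of Setdb1 below 0 and 2 of Atf7ip with that of Tasor above 0, and grey the other 14.

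The rest of the H3K9 methylation system was followed in 4 lists of 41 genes in all, of which 37 had a probe set of their own. These lists too were chosen with earlier results of these data known. Each gene was read on its brightest probe set. In limma 0 of the 37 rose and 0 fell, where 0.374% of 18193 genes passed. At an unadjusted p under 0.05 there was 1, higher in cKO. Of all genes 8.54% were under it in either direction, and 862 of the 18193 were higher in cKO. The groups did not overlap for 4 of the 37, all higher in cKO. Among all 18193 genes, 1438 were higher in cKO without overlap, and 15.5% did not overlap in either direction. The median log2 fold change was -0.01 over the 37 and 0.01 over all genes.

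Among readers of methylated H3K9 and proteins that act with HP1, Lrif1 had the smallest p. Its product binds HP1 and SMCHD1 in human cells. Its single probe set, 1428162_at, read 985, 1287 and 1101 on the cKO arrays, against 658, 613 and 630 on the WT arrays. The groups did not overlap, and the log2 fold change was 0.80 (95% interval 0.43 to 1.17). It did not pass over all probe sets (limma, adjusted p = 0.169), and was 0.81 without the arrays numbered 3 (adjusted p = 0.446). Of the 7 readers, 0 passed in limma. The HP1 genes Cbx1 and Cbx5 were at -0.05 and -0.001, and Cbx3 at 0.14 on a dim probe set. Uhrf1, which reads methylated H3K9 together with hemimethylated DNA, was at -0.13, and Cdyl2, a chromodomain protein, at 0.16. Of the 3 other Cdyl2 probe sets, the dim 1444995_at was higher in cKO without overlap, at 0.92 (95% interval 0.46 to 1.38, limma adjusted p = 0.208), 1432229_a_at was lower without overlap, at -0.25, and 1431139_at was at 0.21 with overlap.

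Other partners of SETDB1, TRIM28 and HUSH numbered 12 measured of 16, and 0 passed. Morc2a, an ATPase that works with HUSH, averaged 2582 ± 302 in cKO and 2108 ± 221 in WT (SD, n = 3 each), a log2 fold change of 0.29 with overlap. Resf1, a binding partner of SETDB1 in mouse embryonic stem cells, averaged 1584 ± 105 in cKO and 1387 ± 63.6 in WT, a log2 fold change of 0.19. Its groups did not overlap on this probe set, but did on its 3 others. Atf7ip2, the paralogue of Atf7ip, was barely above the pseudocount, with 20.8 ± 5.52 in cKO and 27.4 ± 10.3 in WT. Its log2 fold change was -0.22 with overlap. The other Atf7ip2 probe sets were dimmer still in WT, and their groups overlapped. Of these, 1430364_at gave 0.94 (95% interval -0.03 to 1.91) and 1442796_at -0.12 (95% interval -0.87 to 0.62).

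The list of other writers and their partners held 6 genes, of which 0 passed. Mecom, a PRDM protein with reported H3K9 methyltransferase activity, was at -0.38 on a dim probe set, with 44.2 ± 12.5 in cKO and 62.2 ± 13.0 in WT (SD, n = 3 each). It was -0.22 without cKO 2 and -0.66 without both arrays numbered 3, and its other probe sets 1422295_at and 1423011_at gave 0.38 and -0.06, so the probe sets did not share a direction. Zfp644, a partner of EHMT1 and EHMT2, was at 0.20 (0.07 without cKO 2 and 0.08 without WT 3), and its 6 probe sets ran from -0.38 to 0.51, both of these without overlap. Cdyl, a chromodomain corepressor, was at 0.24, and between 0.02 and 0.39 with 1 array left out. All 3 had overlapping groups on the brightest probe set.

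Of the 12 demethylases 0 passed. Kdm7a averaged 1185 ± 46.5 in cKO and 1003 ± 39.3 in WT (SD, n = 3 each), without overlap, a log2 fold change of 0.24 (95% interval -0.08 to 0.55). A second Kdm7a probe set, 1456150_at, was at 0.39, also without overlap. On its dimmer probe sets the groups overlapped, at 0.08 on 1427359_at, -0.05 on 1459821_x_at and -0.002 on 1459820_at. Kdm3a, which removes mono- and dimethylation, averaged 4011 ± 602 in cKO and 3252 ± 225 in WT, without overlap, a log2 fold change of 0.29 (95% interval -0.10 to 0.69), and 0.18 without cKO 1. Jmjd1c, of the same enzyme family, was at -0.11 with overlap, and at 0.06 on both 1448049_at and 1439998_at, also with overlap.

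**Figure D4:**
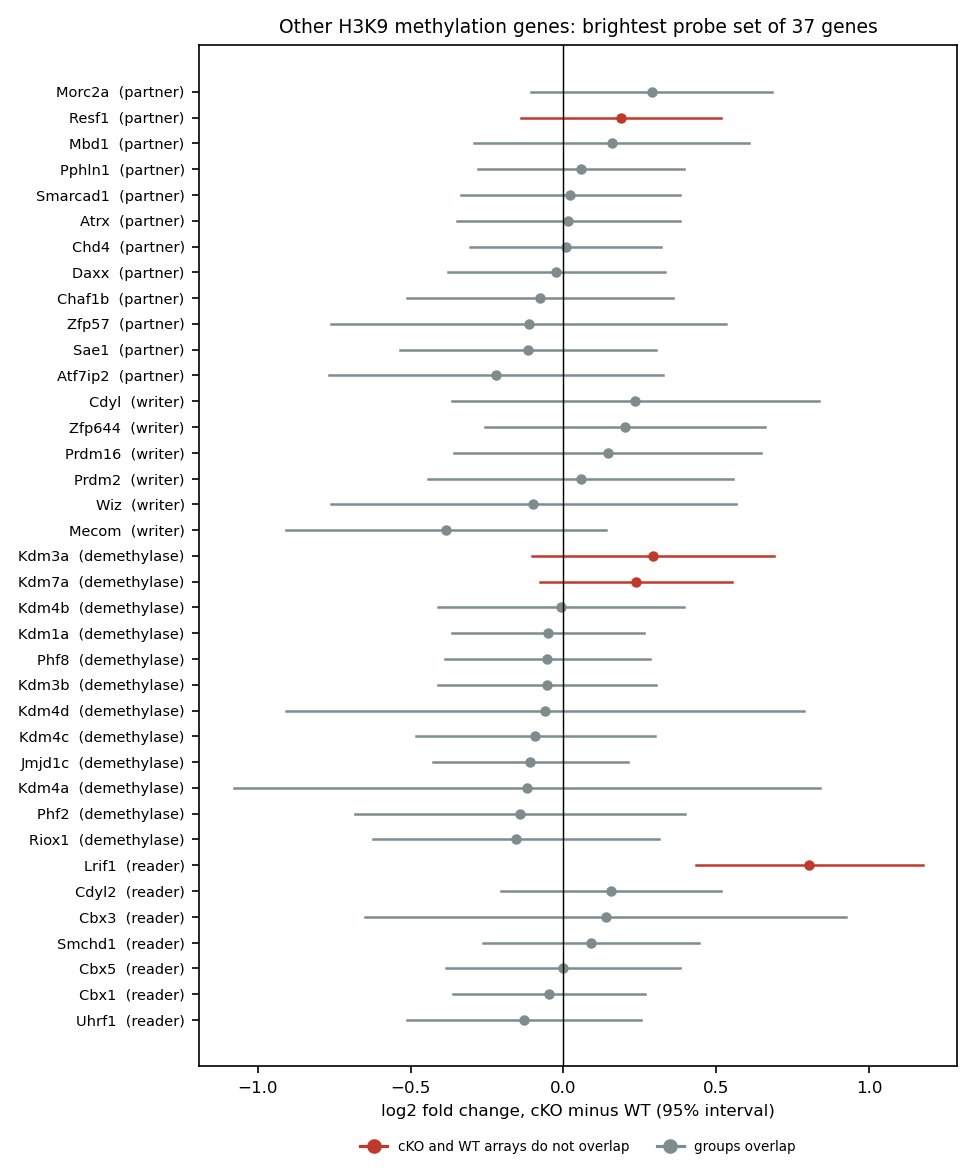
Log2 fold change, cKO minus WT (horizontal axis), of the brightest probe set of 37 other H3K9 methylation genes, grouped into partners, writers, demethylases and readers, with 95% intervals from the limma fit. Red marks the 4 genes whose cKO and WT arrays do not overlap (Resf1, Kdm3a, Kdm7a and Lrif1), and Lrif1 at 0.80 has the only interval that leaves out 0.

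The genes whose arrays ran most like Setdb1 were sought by Pearson correlation of log2 values with 1451833_a_at over the 6 arrays, among 10794 genes with a mean intensity of at least 100. The 5 highest were H2bc22, a histone H2B gene (r = 0.991), Gsg1l, an AMPA receptor auxiliary subunit (0.990), Kank3 (0.990), Lrrtm3, a synaptic adhesion protein (0.989), and Trim32, a ubiquitin ligase (0.988). All 5 were lower in cKO without overlap, with log2 fold changes from -1.44 for Gsg1l to -0.21 for Trim32. Arrays of a group share their genotype, and 228 genes reached an r of 0.9, so these values are a description.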

How the data were processed

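The authors deposited 1 linear intensity per probe set and array, made with the Affymetrix Expression Console per the submitters' processing notes. How probes were summarised, and the version, is not stated there. After trimming 2% at each end the mean was 497 to 498 on all 6 arrays, which shows a common scaling, and no further normalization was applied.

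Intensities were taken to log2(intensity + 16), which makes fold changes of dim probe sets smaller than their ratios. All 45037 probe sets were fitted with genotype as the only term in limma 3.58.1 (lmFit, eBayes) in R 4.3.3, with Benjamini-Hochberg adjustment over all probe sets and a threshold of 0.05. Intervals are 95% intervals of the moderated fit, and ± is the SD of 3 arrays. Precision is limited by having 3 arrays in each group. The design text names 3 embryos per genotype, and the labels do not say that each array held a single embryo, so n counts arrays and p-values measure the spread between them.

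Genes were named from the platform annotation, and 9 members matched RefSeq (GRCm38.p6) by Entrez identifier. The text names every probe set of the members, the 3 genes with the smallest p in each further list and the 5 genes most like Setdb1, passing over clone and predicted names. Tie1, Emcn, Cldn5, Emx2, Eomes, Neurog2, Gad1, Nkx2-1, the Cbx genes and the sex-linked genes are named outside this rule. Members and lists were chosen with earlier results of these data known. Alternatives were quantile normalization, median centring, pseudocounts of 1 and 64, leaving out dim probe sets, trend and robust eBayes, array weights, 1 probe set per gene, the replicate number as a block, each array left out, and the arrays numbered 3 left out or given a term.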

Additional observations from a re-analysis of the deposited data

How the results depend on the processing

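Over 31 fold changes and up to 17 alternatives each, 13 of 512 values turned sign and 6 came to pass. None of the 31 passed in the fit reported, so none could lose a call, and staying short of the threshold on 4 or 5 arrays says little. Setdb1 on 1451833_a_at stayed between -0.91 and -0.67 and never passed (lowest adjusted p = 0.0688, with trend and robust eBayes). Of the 16 probe sets of the other members, 1 passed with a pseudocount of 64, 1 with dim probe sets left out and 2 with trend and robust eBayes. These were Atf7ip 1449192_at (adjusted p = 0.0470, 0.0349 and 0.0174 in that order) and, in the last, Tasor (adjusted p = 0.0380). Of the 37 further genes, Lrif1 was the 1 that passed with dim probe sets left out (adjusted p = 0.0463) and the 1 with trend and robust eBayes (adjusted p = 0.0358). Leaving out dim probe sets tests fewer of them, but the standard errors also fell while the fold changes stayed the same. For Atf7ip 1449192_at the standard error was 0.1683 in the fit reported and 0.1471 with dim probe sets left out. For Lrif1 these were 0.1545 and 0.1324. With trend and robust eBayes, also at unchanged fold changes, it was 0.1395 for Atf7ip 1449192_at, 0.131 for Lrif1 and 0.15 for Tasor (0.1773 in the fit reported). The share of each in the passes was not tested.

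Over all probe sets 124 passed, against 48 with a pseudocount of 1, 205 with 64, 252 with dim probe sets left out, 257 with trend and robust eBayes, 7 with the replicate block and 8 without the arrays numbered 3. Leaving out 1 array gave 19 to 36, and 0 of the members or of the 37 genes, with lower power on 5 arrays. No member passed with the replicate block either, which says little where only 7 of all probe sets passed. Same-numbered arrays were not treated as pairs. Both arrays numbered 3 stand apart in the same direction for Xist and blood transcripts, and the labels give the numbers no meaning. Deviations of same-numbered arrays from the group means correlated at 0.079, 0.194 and 0.410 for numbers 1, 2 and 3, and cKO 1 correlated better with WT 2 (0.164) than with WT 1.

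Signs turned only for fold changes near 0. Setdb2 was at 0.052 with array weights and 0.082 without the arrays numbered 3, and between -0.095 and 0.043 with 1 array left out. Suv39h2 1433996_at was at -0.022 with median centring and between -0.13 and 0.15 with 1 array left out, and 1422979_at between -0.042 and 0.25. Mphosph8 1427524_a_at was at -0.056 without the arrays numbered 3 and between -0.049 and 0.16 with 1 array left out. Trim28 1415869_a_at ran from -0.27 to -0.04 and Suv39h2 1436561_at from -0.45 to -0.04 with 1 array left out. Median centring lowered all fold changes by 0.05. Dim probe sets, such as 1458215_at and 1416670_at of Setdb1, have fold changes whose size depends on the pseudocount.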
